A study of Mus musculus with 20 samples.

Results

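The control C2C12 myotubes of a study of muscle-specific kinase (MuSK) antibodies are described here by what they expressed, with no contrast to any other treatment. C2C12 is an established mouse myoblast line that stops dividing, fuses and forms multinucleate, striated myotubes when serum is lowered. The members are the 4 libraries of the group treated with the negative control antibody, chosen by their labels, of 20 libraries in the series. In all 4, confluent myoblasts were differentiated for 5 days in 2% horse serum and then kept for 16 h with 7.7 nM b12 hIgG4, a human IgG4 negative control antibody, without agrin. All 4 carried the antibody, so the values are those of antibody-treated control cultures and not of untreated myotubes. The other treatments in the series add a MuSK-activating antibody or neural agrin and are not used here. The cultures held no nerve, and the line is a single immortalised line, so the values describe aneural cultured myotubes. The series' design text calls the replicates biological, and nothing in the labels says what a replicate number stands for.

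Muscle fibres contract because myosin heads pull on actin filaments, a movement that troponin and tropomyosin permit when calcium leaves the sarcoplasmic reticulum. Most of these proteins come as families of isoforms from separate genes, and embryonic, slow, fast and cardiac members are exchanged as muscle develops. At the neuromuscular junction, agrin from the nerve binds LRP4, which activates the kinase MuSK in the muscle membrane, and DOK7 and rapsyn then act in the clustering of acetylcholine receptors. Differentiation of myoblasts is driven by the myogenic regulatory factors, among them MyoD and myogenin, together with MEF2 factors.

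Total RNA was sequenced after ribosomal RNA removal, and the 4 libraries held 18424881 to 22232391 counts. Mitochondrially encoded genes took 31.6 ± 2.58% of the counts (SD, n = 4, range 28.9 to 34.7%), and the 24 rows with symbols starting mt- were left out of every value below. Levels are given as CPM, counts scaled by the total of nuclear-gene counts to 1000000, where that total was 13106134 to 15010534 per library. To compare different genes, counts were divided by the length of the merged exons and scaled to the same 1000000 in every library (TPM). A gene was counted as on when it reached 1 CPM in each of the 4 libraries, and at the floor when it had at most 3 counts in each, which is 0.200 to 0.229 CPM and allows no statement about lower levels. Genes between these limits are given as low. All values are from bulk RNA, so more cells of a type and more RNA per cell cannot be told apart.

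The 4 libraries were distinct, and replicate 2 stood apart in how its counts varied with transcript length. Over 198 genes with merged exons under 1 kb, the median deviation of replicate 2 from the mean of the 4 was -0.17 on the log2 scale, and over 240 genes longer than 16 kb it was 0.24. The same medians were 0.14 and -0.12 in replicate 1, -0.05 and 0.03 in replicate 3, and 0.09 and -0.11 in replicate 4. Values of very long and very short genes therefore carry a length-related spread between libraries, and ranks are given with and without replicate 2 where they differ. The cause of this spread was not tested. The median coefficient of variation of a gene that was on was 13.4%, and it was 9.17% over the 2332 genes at 100 CPM or more. The biological coefficient of variation that edgeR estimated over 12285 genes was 16.7%.

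Of 26698 nuclear genes in the table, 11868 (44.5%) were on, 6567 were low and 8263 (30.9%) were at the floor. Of 16287 protein-coding genes, 11107 were on. The most abundant nuclear gene of a library took 0.989 ± 0.156% of its nuclear counts, the 25 most abundant took 9.56 ± 0.308% and the 1000 most abundant took 52.2 ± 0.479% (SD, n = 4). Protein-coding genes held 97.1 ± 0.0508% of nuclear counts and long intergenic non-coding RNAs held 1.94 ± 0.0903%. Counts were thus spread over many transcripts, with no nuclear gene holding more than 1% of counts in the mean.

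By mean CPM, the list was led by the nuclear-retained long non-coding RNA Malat1, the translation elongation factor Eef1a1, the giant sarcomeric spring titin (Ttn), the imprinted long non-coding RNA H19 and the membrane scaffold Ahnak. Malat1 had 7939.8, 12128, 8851 and 7203 CPM in replicates 1 to 4, and its mean of 9031 ± 2172 CPM (SD, n = 4) included a high value in replicate 2. Eef1a1 had 8504, 7407, 9357 and 9557 CPM, and its value in replicate 2 was the lowest of the 4. Without replicate 2, Eef1a1 ranked 1, Malat1 2, H19 3 and Ttn 4, so the order of these 4 genes rests on replicate 2. Ttn had 6994, 9177, 7529 and 5170.3 CPM and ranked 3, but its merged exons span 116825 bases, and by TPM it ranked 770 of all nuclear genes with 222 ± 59.3 TPM. Behind these genes came Col3a1, a fibrillar collagen chain, with 5126 ± 574 CPM, and Lgals1, the secreted lectin galectin-1, with 3921 ± 439 CPM. Among the 25 highest by CPM were 8 other sarcomere or intermediate filament genes of the muscle lists besides Ttn and Myh3. These were Mylpf, Acta1, Myl1, Des, Tnnc1, Tpm1, Tpm2 and Tnnt3. Without replicate 2, Myh3 went from rank 16 to 21 and Tnnt3 from 24 to 26, while Vim went from 27 to 25. The place of Tnnt3 among the 25 thus rests on replicate 2. The remaining genes among the 25 were the cytoskeletal linkers Macf1 and Flna, the actin gene Actb, the intermediate filament gene Nes, the elongation factor Eef2, the secreted phosphoprotein Spp1, the chaperones Hsp90ab1 and Hspa8, and the laminin receptor subunit Itga7.

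**Figure D1:**
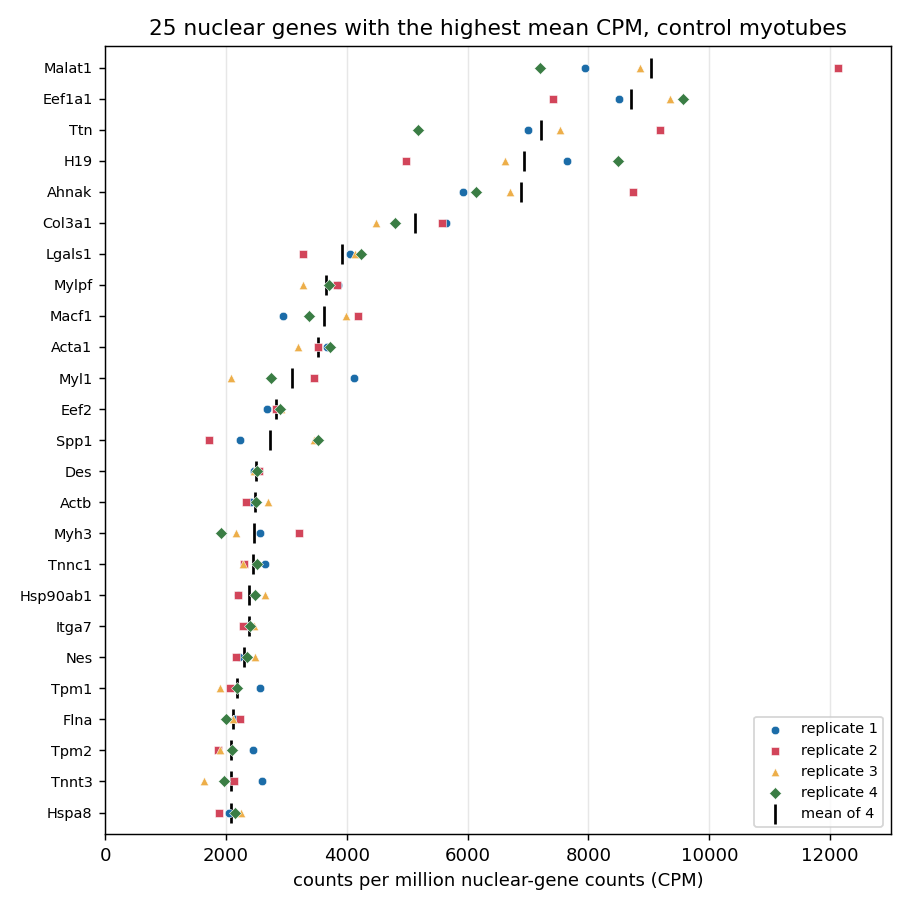
Level in CPM (x axis, linear) of the 25 nuclear genes with the highest mean over the 4 control libraries, with a marker per replicate and a bar at the mean. Replicate 2 lies highest for Malat1, Ttn and Ahnak and lowest for Eef1a1, H19 and Lgals1, while Des and Itga7 hardly differ between libraries.

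When length was taken into account, the short transcripts of the contractile apparatus moved up the order. Among protein-coding genes, Lgals1 was highest with 15488 ± 1239 TPM (SD, n = 4), followed by Eef1a1 with 12461 ± 1074 TPM and Mylpf, the fast regulatory light chain of myosin, with 12337 ± 1096 TPM. Tnnc1 and Acta1 came next, at 8374 ± 419 TPM and 8211 ± 537 TPM. The ranges of Eef1a1 and Mylpf overlapped, and so did those of Tnnc1 and Acta1. Ribosomal protein genes filled 8 of the 25 highest places by TPM, with Rplp1 at 4616 ± 572 TPM, Rplp0 at 3809.9 ± 289 TPM and Rpl8 at 3677 ± 461 TPM in the lead. The other genes among the 25 were Spp1, Myl1, Tnnt3, Tnnc2, Tnni2, Actb, Eef2, Eno3, Hsp90ab1, Acta2, Tpm2 and Tmsb10. Ribosomal protein genes have many processed pseudogenes, and the table lists counts for such copies (Rps3a3 402 ± 50.8 CPM, Rps2-ps10 332 ± 40.9 CPM), so reads of parent and copy may have been split and these levels are uncertain.

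The muscle lists named 154 genes, of which 150 have a row, and they held 7.26 ± 0.648% of nuclear counts (SD, n = 4). They take in whole families, so this share is not one of muscle-specific genes alone. Cytoplasmic Actb, for example, held 0.248% of nuclear counts and the non-muscle and smooth myosin heavy chains 0.128%. Of the 150, 126 were on, 11 were low and 13 were at the floor. The median over the 150 was 108 CPM and 92.3 TPM, where the median of all genes that were on was 32.9 CPM and 25.6 TPM. The lists are described below by role, from the thick filament to metabolism.

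Among the sarcomeric myosin heavy chains, the embryonic chain Myh3 was the main transcript. Myh3 (chromosome 11, 67078300 to 67102291, GRCm38) had 2557, 3204, 2158 and 1910.4 CPM in replicates 1 to 4, and its TPM made up 71.0 ± 1.90% of the family (SD, n = 4). It exceeded the fast chain Myh1 by a TPM ratio of 4.40 ± 0.151, with ratios of 4.23 to 4.60 in single libraries. Myh1 itself had 584, 794, 520.1 and 454 CPM, with replicate 2 highest as for Myh3. Myh4, the fastest chain, followed with 143 ± 19.9 TPM and Myh7, the slow and cardiac beta chain, with 74.0 ± 9.14 TPM, and the ranges of these 4 genes did not overlap. Myh8 (perinatal), Myh7b, Myh2 (fast oxidative) and Myh6 (cardiac alpha) lay between 7.94 ± 1.84 TPM and 12.6 ± 2.05 TPM, and the ranges of neighbours in this order overlapped. Myh7b had 24.2, 24.1, 8.32 and 9.46 CPM, higher in replicates 1 and 2 than in 3 and 4. Myh13, the extraocular chain, was low, at 0.983, 2.37, 1.07 and 4.80 CPM. Counts were thus assigned to embryonic, fast, slow and cardiac chain genes, in unequal amounts. How reads that match several genes were treated is not given, so counts of members could have been mixed. Of the non-muscle chains, Myh9 was on with 342 ± 25.7 TPM and Myh10 with 15.9 ± 2.83 TPM, Myh14 was low and the smooth muscle chain Myh11 was at the floor.

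The light chains were led by Mylpf (chromosome 7, 127208890 to 127214298), with 3845, 3832, 3269 and 3697 CPM and 59.8 ± 3.29% of the family's TPM (SD, n = 4). Myl1, the fast essential light chain, had 4118, 3448, 2081 and 2748 CPM, highest in replicate 1 and lowest in replicate 3. Myl4, the embryonic and atrial chain, had 1745, 1583, 1571 and 1693 CPM with little spread between libraries. The slow and ventricular regulatory chain Myl2 was on at 256, 206, 86.8 and 158 CPM, with replicate 3 lowest. Its slow essential partner Myl3 was low, at 0.562, 0.978, 0.229 and 0.266 CPM, and the atrial chain Myl7 was at the floor. The light chain pattern thus joined a high fast regulatory chain to a fast and an embryonic essential chain.

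Thin filament genes likewise mixed fast, slow and cardiac forms. Skeletal alpha-actin Acta1 had 3676, 3520.4, 3191 and 3722 CPM and 53.6 ± 1.66% of actin TPM, cytoplasmic beta-actin Actb had 21.7 ± 2.01% and smooth muscle alpha-actin Acta2 had 17.2 ± 0.356% (SD, n = 4). The cardiac actin Actc1 had 309.5, 296, 217 and 277 CPM, and Acta1 exceeded it by a TPM ratio of 13.7 ± 1.45. Actins are closely similar in their coding sequence, so counts of members could have been mixed. Fast troponin T, Tnnt3, made up 72.8 ± 1.60% of its family, slow Tnnt1 21.3 ± 2.23% and cardiac Tnnt2 5.82 ± 0.636%. Fast troponin I, Tnni2, made up 65.6 ± 1.52% and slow Tnni1 34.2 ± 1.55%, while cardiac Tnni3 was on at 12.6, 4.96, 3.74 and 5.73 CPM. The order was the other way round for troponin C. The slow and cardiac gene Tnnc1 made up 67.3 ± 3.04% and exceeded the fast gene Tnnc2 by a ratio of 2.07 ± 0.289. The fast troponin C gene had 1149.8, 924, 725 and 886 CPM, highest in replicate 1, while Tnnc1 varied less, at 2652, 2304, 2287 and 2518 CPM. All 8 troponin genes were on, and the fast gene led for troponin T and I and the slow gene for troponin C in each of the 4 libraries. Without the length correction, Tnni1 instead of Tnni2 led troponin I, so that order rests on the lengths of 3600 and 1497 bases. Of the tropomyosins, Tpm2 led per length with 2553 ± 264 TPM, and Tpm4 and Tpm1 overlapped at 1246 ± 76.4 TPM and 1201 ± 137 TPM. By mean CPM Tpm1 was above Tpm2, with ranges that overlapped.

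**Figure D2:**
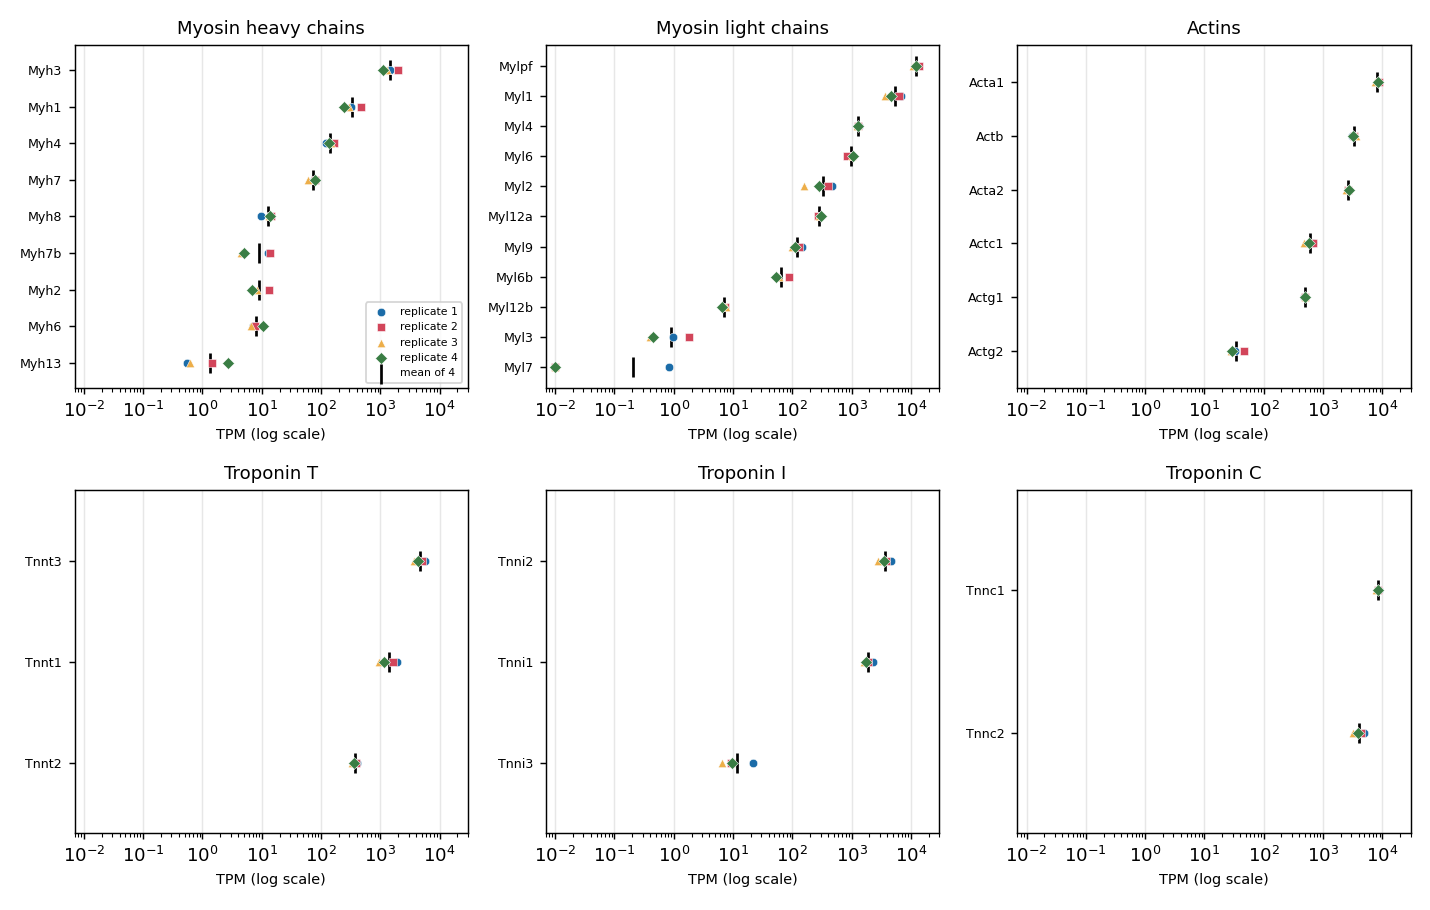
Level per length (TPM, log scale) of members of 6 contractile families in each of the 4 control libraries, with a bar at the mean and values under 0.01 drawn at 0.01. Myh3, Mylpf, Acta1, Tnnt3, Tnni2 and Tnnc1 lead their families in every library, and Myl7 lies at the left edge in 3 of 4.

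Of 28 genes for giant, Z-disc and M-band proteins, 27 were on and the Z-disc gene Myoz3 was low. Desmin (Des), the muscle intermediate filament, had 2456, 2548, 2470.2 and 2511 CPM, the smallest relative spread among the muscle-list genes in the 25 highest. By TPM its range overlapped that of Ankrd1, a stretch-responsive ankyrin repeat protein, which had 1477, 1451, 1768 and 2039 CPM. Klhl41, a stabiliser of thin filaments, had 501, 533, 269.6 and 319 CPM, higher in replicates 1 and 2 than in 3 and 4. Nebulin (Neb), the giant ruler of the thin filament, had 1578, 2378, 1013 and 944 CPM, also higher in replicates 1 and 2. Myom2, the M-band protein of fast fibres, had 535 ± 86.9 TPM. Myoz1 and Myot, Z-disc proteins of adult fibres, were on only just, at 3.70 ± 1.82 CPM and 2.20 ± 0.997 CPM. Of the alpha-actinins, the fast-fibre gene Actn3 made up 78.8 ± 3.22% of the family and exceeded Actn2 by a ratio of 21.3 ± 3.68. Among myosin binding proteins, Mybph led with 812 ± 113 TPM, ahead of the fast gene Mybpc2 with 70.2 ± 26.6 TPM and the slow gene Mybpc1 with 6.69 ± 1.68 TPM, and the cardiac gene Mybpc3 was low.

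Genes of excitation-contraction coupling showed mainly skeletal forms for the calcium channels and mainly the cardiac and slow form for calsequestrin. Cacna1s, the voltage sensor of skeletal muscle, had 200.0, 218, 154 and 142 CPM, while Cacna1c and Cacna1d, the channels of heart and other tissues, were at the floor. Ryr1, the skeletal calcium release channel, had 255, 378, 192 and 182 CPM and 84.5 ± 2.18% of the family's TPM (SD, n = 4), Ryr3 had 35.6, 51.3, 35.9 and 32.5 CPM and the cardiac gene Ryr2 was at the floor. For the calcium store, Casq2, the cardiac and slow calsequestrin, made up 93.9 ± 3.25%, and exceeded the fast gene Casq1 by ratios of 8.17 to 23.6. Casq2 had 1907, 1727, 1756 and 1882 CPM and varied little, whereas Casq1 had 74.2, 151, 54.9 and 56.9 CPM, with replicate 2 far above the other 3. Of the calcium pumps, Atp2a2 (slow and cardiac) had 439.6 ± 151 TPM and Atp2a1 (fast) 269 ± 130.4 TPM. Atp2a2 was higher in each library, but the ranges overlapped across libraries, and counts per gene do not separate its splice forms. The small peptides that inhibit these pumps were little expressed. Sarcolipin (Sln) had 0 counts in all 4 libraries, phospholamban (Pln) was low at 1, 4, 0 and 0 counts and myoregulin (Mrln) was on at 7.24, 8.52, 2.29 and 4.53 CPM. Stac3, an adaptor of the channel complex, was on at 35.2, 20.3, 29.9 and 25.6 CPM, and Jsrp1, Cacng1, Jph2, Jph1, Cacnb1 and Trdn were on as well.

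Among glycolytic and energy genes, the muscle members of the enolases, creatine kinases, phosphofructokinases and glycogen phosphorylases were the highest of their families per length. Eno3, the muscle enolase, had 1759, 1519.5, 1195 and 1294 CPM and exceeded Eno1 by a TPM ratio of 11.3 ± 3.37. Muscle creatine kinase Ckm had 670.0, 482, 292 and 414 CPM and exceeded the brain-type gene Ckb by a ratio of 5.87 ± 1.96, while sarcomeric mitochondrial Ckmt2 was only at 2.74, 4.47, 1.14 and 1.73 CPM. Aldoa led the aldolases with 1559 ± 124 TPM. Pfkm led the phosphofructokinases with 471 ± 165 TPM, Pygm the glycogen phosphorylases with 104 ± 29.5 TPM and Hk2 the hexokinases with 59.5 ± 9.08 TPM. The muscle and general phosphoglycerate mutases Pgam2 and Pgam1 did not differ beyond their ranges, with a TPM ratio of 1.21 ± 0.481, and by counts Pgam1 was the higher. Ldha led with 683 ± 12.1 TPM, Ldhb had 12.9, 13.2, 5.26 and 4.86 CPM, and the testis gene Ldhc had 0 counts. Myoglobin (Mb), the oxygen store, had 573, 519, 267 and 379.9 CPM, lowest in replicate 3. Among glucose transporters, Slc2a1 had 43.7, 46.0, 59.7 and 51.8 CPM and the insulin-responsive transporter of mature muscle, Slc2a4, had 5.06, 5.73, 1.83 and 4.33 CPM, so the general transporter was the higher.

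Myogenin (Myog, chromosome 1, 134289989 to 134292548, GRCm38) was the leading myogenic regulatory factor. It had 885, 744, 873 and 878 CPM in replicates 1 to 4, made up 93.2 ± 0.875% of the family's TPM (SD, n = 4) and exceeded Myod1 by a ratio of 17.6 ± 2.79. Myod1, the factor of committed myoblasts, had 58.7, 68.8, 58.4 and 55.9 CPM. Myf5, another early factor, had 13.8, 11.5, 24.3 and 19.3 CPM, and replicates 3 and 4 were above replicates 1 and 2. Myf6, the factor of mature fibres, was low, at 8, 20, 0 and 0 counts. Mef2c, Mef2a and Mef2d were on with 72.8 ± 19.3 TPM, 42.5 ± 12.6 TPM and 38.9 ± 6.37 TPM, their ranges overlapped between neighbours, and Mef2b was at the floor. All 7 fusion genes with a row were on, among them the cadherin Cdh15 at 429, 365, 514 and 488 CPM. The membrane fusion proteins Mymk and Mymx had 135, 190.3, 147 and 135 CPM and 97.6, 84.2, 112 and 116 CPM, and by TPM their ranges overlapped.

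The MyoD family binds short sites of the form CANNTG, known as E-boxes. The 250 bases before the transcription start are shown for 5 genes, the leading regulator, the leading light and heavy chains, and the fetal and adult acetylcholine receptor subunits that come up below. They were read from RefSeq on GRCm38.p6, 5′ to 3′ on the strand of the gene, with CANNTG in capitals and, in Chrne, also the letters CCGGAA in capitals, a form bound by factors of the ETS family.
Myog, chr1:134289754-134290003, plus strand: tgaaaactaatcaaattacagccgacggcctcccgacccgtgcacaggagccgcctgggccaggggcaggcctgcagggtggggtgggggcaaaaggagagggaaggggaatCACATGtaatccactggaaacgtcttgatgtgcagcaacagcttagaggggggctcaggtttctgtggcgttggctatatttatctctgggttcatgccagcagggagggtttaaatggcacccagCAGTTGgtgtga
Mylpf, chr7:127211358-127211607, plus strand: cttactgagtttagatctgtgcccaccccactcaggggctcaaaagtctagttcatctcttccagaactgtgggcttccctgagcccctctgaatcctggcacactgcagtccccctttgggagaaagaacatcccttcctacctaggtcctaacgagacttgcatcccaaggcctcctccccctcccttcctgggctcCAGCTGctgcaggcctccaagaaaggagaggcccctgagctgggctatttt
Myh3, chr11:67078050-67078299, plus strand: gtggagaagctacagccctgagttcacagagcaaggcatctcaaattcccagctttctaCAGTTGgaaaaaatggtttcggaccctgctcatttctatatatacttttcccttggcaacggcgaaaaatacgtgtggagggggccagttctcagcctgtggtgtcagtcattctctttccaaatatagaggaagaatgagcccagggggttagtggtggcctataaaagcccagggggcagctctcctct
Chrng, chr1:87205561-87205810, plus strand: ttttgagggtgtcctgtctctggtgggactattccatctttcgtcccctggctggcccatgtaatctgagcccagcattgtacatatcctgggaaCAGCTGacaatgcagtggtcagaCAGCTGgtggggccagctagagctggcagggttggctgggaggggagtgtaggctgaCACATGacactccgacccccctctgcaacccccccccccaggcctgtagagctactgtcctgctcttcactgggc
Chrne, chr11:70619195-70619444, minus strand: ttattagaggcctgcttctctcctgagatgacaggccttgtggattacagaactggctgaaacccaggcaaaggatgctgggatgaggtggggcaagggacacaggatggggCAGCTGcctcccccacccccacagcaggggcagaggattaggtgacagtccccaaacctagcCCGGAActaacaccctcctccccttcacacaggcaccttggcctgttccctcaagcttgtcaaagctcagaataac
Counted from the RefSeq start, CANNTG began at -138 and -12 in Myog, at -51 in Mylpf and at -191 in Myh3. In Chrng it began at -155, -132 and -75, and in Chrne at -138. The gene coordinates given elsewhere are from GENCODE and start further upstream for Myog and Mylpf. The match at -12 in Myog and all bases shown for Mylpf therefore lie inside the GENCODE genes. In Myh3 the letters TATAAA began at -29, and in Chrne CCGGAA began at -76. These are matches of letters and not measured binding.

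Over windows from 250 bases before to 50 bases after the start, CANNTG stood on either strand in 72.1% of 27025 promoters and in 61.9% of 9192 promoters of genes that were on. It stood in 74 of 95 promoters of muscle-list genes that were on (77.9%), and in 13 of 16 of those that were low or at the floor. The form CAGCTG, a subset of CANNTG, stood in 16.1% of all promoters and 30.5% of the 95. TATAAA stood in 7.16% of promoters of genes that were on and in 21.1% of the 95, and CCGGAA in 30.1% and 8.42%. The MEF2 motif stood in 1.82% of promoters of genes that were on and in 12.6% of the 95, and the CArG box, the site of serum response factor, in 1.37% and 8.42%. In the 16 promoters of muscle-list genes that were low or at the floor, CAGCTG stood in 5, TATAAA in 3, CCGGAA in 2, the MEF2 motif in 1 and the CArG box in 4, which is 25% for the CArG box against 8.42% of the 95. Shares over 16 promoters are coarse, and no difference was tested.

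The synaptic lists named 85 genes, of which 76 have a row, and held 1.01 ± 0.0993% of nuclear counts (SD, n = 4). The long cytoskeletal linker gene Macf1 alone held 0.362% of nuclear counts, over 31402 bases of merged exons. Of the 76, 57 were on, 9 were low and 10 were at the floor. All 15 genes of the MuSK pathway list with a row, of 16 listed, were on, in cultures that had received no agrin. Musk, the kinase itself (chromosome 4, 58285960 to 58374303, GRCm38), had 72.8, 99.2, 76.5 and 80.6 CPM in replicates 1 to 4, with replicate 2 highest. Lrp4, the agrin receptor (chromosome 2, 91457511 to 91513779), had 296, 331, 321 and 281 CPM, and the ranges of Lrp4 (105 ± 11.8 TPM) and Musk (78.3 ± 14.3 TPM) overlapped across libraries, although Lrp4 was higher in each. Dok7, the cytoplasmic activator of MuSK, had 35.4, 30.7, 36.0 and 30.5 CPM. By TPM, Dok7 was lower than Musk in all 4 libraries, at 27.7 ± 2.34 TPM. Rapsn, which encodes the receptor-clustering protein rapsyn, had 133, 118, 108 and 109 CPM and 232 ± 23.5 TPM, the highest level in the list after the cytoskeletal linker Macf1, with 414 ± 79.7 TPM. Agrn, the gene of agrin, had 23.6, 31.4, 20.6 and 21.9 CPM, so the cultures held transcripts of agrin themselves. Bulk RNA does not show whether myotubes or unfused cells carried them. The counts are per gene, so the nerve form of agrin, which carries extra exons, cannot be told from the muscle form. Receptor, kinase, adaptor and clustering protein genes of the pathway were thus present together, over a range from 9.43 ± 2.26 TPM for Agrn to that of Macf1.

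The acetylcholine receptor of fetal muscle contains the gamma subunit, which the epsilon subunit replaces in innervated adult muscle. All 5 muscle subunit genes were on. Chrna1 (alpha) had 885, 904, 879 and 831 CPM and 55.0 ± 2.86% of the family's TPM (SD, n = 4), and exceeded Chrnb1 (beta) by a ratio of 2.81 ± 0.0876. The assembled receptor holds more alpha than beta subunits, and a link of the RNA ratio to this was not tested. Chrnb1 and Chrnd (delta) had 254 ± 19.1 TPM and 209 ± 36.2 TPM, with overlapping ranges. Chrng (gamma) had 130.2, 204, 97.1 and 99.5 CPM, and replicate 2 was the highest. Chrne (epsilon) had 75, 90, 68 and 36 counts, or 5.27, 6.29, 5.19 and 2.40 CPM. The fetal subunit exceeded the adult one in each library, by TPM ratios of 7.59 to 16.8. Of 6 neuronal-type subunit genes with a row, Chrnb2 was on at 2.39, 1.19, 2.14 and 1.27 CPM and the other 5 were at the floor. Of the enzymes that split acetylcholine, Ache was low at 1.97, 1.47, 0.610 and 1.67 CPM, Bche was low, and Colq, the collagen tail that anchors the enzyme, was on at 4.29, 10.5, 5.34 and 2.46 CPM.

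The dystrophin-glycoprotein complex, which links the cytoskeleton to the basement membrane, had all of its 15 listed genes on. Dystroglycan (Dag1), its core receptor for laminin, and the sarcoglycan Sgcb had 185 ± 34.5 TPM and 171 ± 42.4 TPM, with overlapping ranges. Utrophin (Utrn), the relative of dystrophin that is concentrated at the junction in adult fibres, had 451, 642, 504 and 482 CPM. Dystrophin (Dmd) had 45.4, 54.1, 54.5 and 51.3 CPM, and Utrn exceeded it by a TPM ratio of 14.1 ± 1.68. Merged exons include those of short isoforms, and both genes are long, so the ratio depends on the annotated lengths of 17108 and 23801 bases. Nos1, the neuronal nitric oxide synthase bound to the complex, had 7.73, 13.8, 2.59 and 2.00 CPM, higher in replicates 1 and 2 than in 3 and 4.

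Among sodium channel genes, Scn4a, the channel of adult muscle, was on at 33.6, 59.7, 26.5 and 18.9 CPM, highest in replicate 2. Scn7a was on too, Scn10a, Scn2a, Scn3a and Scn9a were low, and Scn8a and Scn1a were at the floor. Of the neuregulin receptors, Erbb3 had 122 ± 15.8 TPM and Erbb2 39.0 ± 6.72 TPM, while Erbb4 was at the floor. Of the ETS factors linked to synaptic transcription, Gabpa had 81.2 ± 4.49 TPM and Etv5 13.4 ± 3.30 TPM. Nrg1 was on at 16.8, 24.0, 18.9 and 15.7 CPM, Nrg2 had 0 counts and Nrg4 was at the floor.

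**Figure D3:**
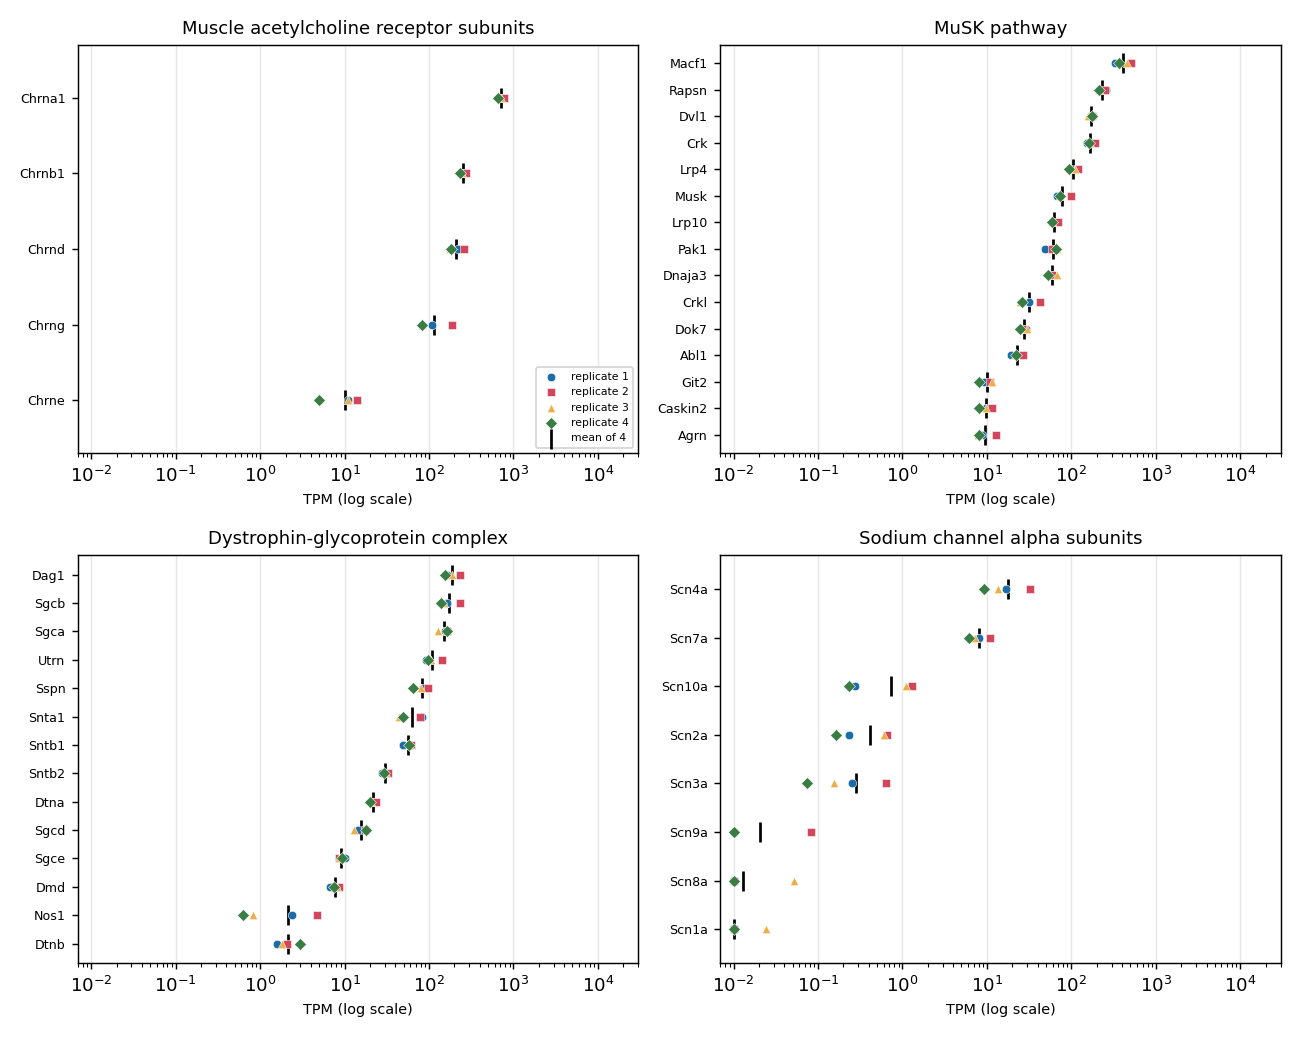
Level per length (TPM, log scale) of acetylcholine receptor subunits, the MuSK pathway, the dystrophin-glycoprotein complex and sodium channels in each of the 4 control libraries, with a bar at the mean and values under 0.01 drawn at 0.01. Chrne lies below the other receptor subunits in every library, and Utrn lies above Dmd in each.

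The matrix lists named 102 genes, of which 99 have a row, and held 3.39 ± 0.169% of nuclear counts (SD, n = 4), with 75 on, 17 low and 7 at the floor. Col3a1, which forms the fine fibrils of soft tissue, had 5641, 5577, 4482 and 4803 CPM and 61.7 ± 0.806% of the family's TPM, followed by Col5a2 with 25.2 ± 2.13%. The chains of type I collagen, which assemble as heterotrimers with an excess of alpha 1, were far apart. Col1a2 had 719, 803, 578 and 575 CPM and Col1a1 had 49.2, 102, 26.2 and 32.2 CPM, and the TPM ratio of Col1a2 to Col1a1 was 4.17 to 11.7 in single libraries. Col1a1 was highest in replicate 2 and lowest in replicate 3, and Col1a2 exceeded it in each. Col2a1, the cartilage collagen, was at the floor. Of the basement membrane chains, Col4a1 led with 108 ± 6.48 TPM, ahead of Col4a2 with 49.2 ± 7.94 TPM, and Col4a3 and Col4a4 were at the floor.

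Per length, secreted glycoproteins were led by Spp1, osteopontin, with 2224, 1717, 3462 and 3519.9 CPM in replicates 1 to 4. Its values in replicates 3 and 4 lay well above those in replicates 1 and 2, and its TPM, 43.6 ± 10.3% of the list's sum, was the highest of 26 genes in each library. Sparc, a collagen-binding glycoprotein, was second by mean TPM with 1529 ± 157 TPM, and had 1637, 1748, 1582 and 1495 CPM. The TPM ranges of Sparc and the mineralisation inhibitor Mgp (1288 ± 179 TPM) overlapped. Fibronectin (Fn1), whose merged exons are longer, had 1757, 2663, 1736 and 1469.5 CPM, with replicate 2 highest, and by CPM it lay above Sparc in replicates 1 to 3. The elastic fibre gene Eln was low. Of enzymes and inhibitors, Timp1, an inhibitor of metalloproteinases, had 392, 301, 542 and 547 CPM, and the collagen-modifying enzyme P4hb and the collagen chaperone Serpinh1 had 1322 ± 65.6 TPM and 1282 ± 147 TPM. The gelatinase Mmp2 was on with 467 ± 117 TPM and Mmp9 was low.

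Laminin and integrin genes, whose products form the contact with the basement membrane, included the muscle forms. Lamb2, the beta chain concentrated at synapses, had 93.3 ± 12.8 TPM and Lamb1 84.7 ± 15.9 TPM. Lamb2 was the higher per length in each library, but their ranges overlapped, and by counts Lamb1 was the higher. Of the alpha chains, Lama5 and Lama2 had 56.3 ± 10.4 TPM and 43.3 ± 7.42 TPM, Lama4 had 12.2 ± 1.62 TPM, and Lama1 and Lama3 were low. Itga7, the laminin-binding integrin of muscle, had 2348, 2288, 2469 and 2391 CPM and exceeded Itga6 by a TPM ratio of 14.5 ± 1.80. Its partner Itgb1 had 1698, 1934, 1584 and 1752 CPM. Itga2 had 0 counts in all 4 libraries.

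**Figure D4:**
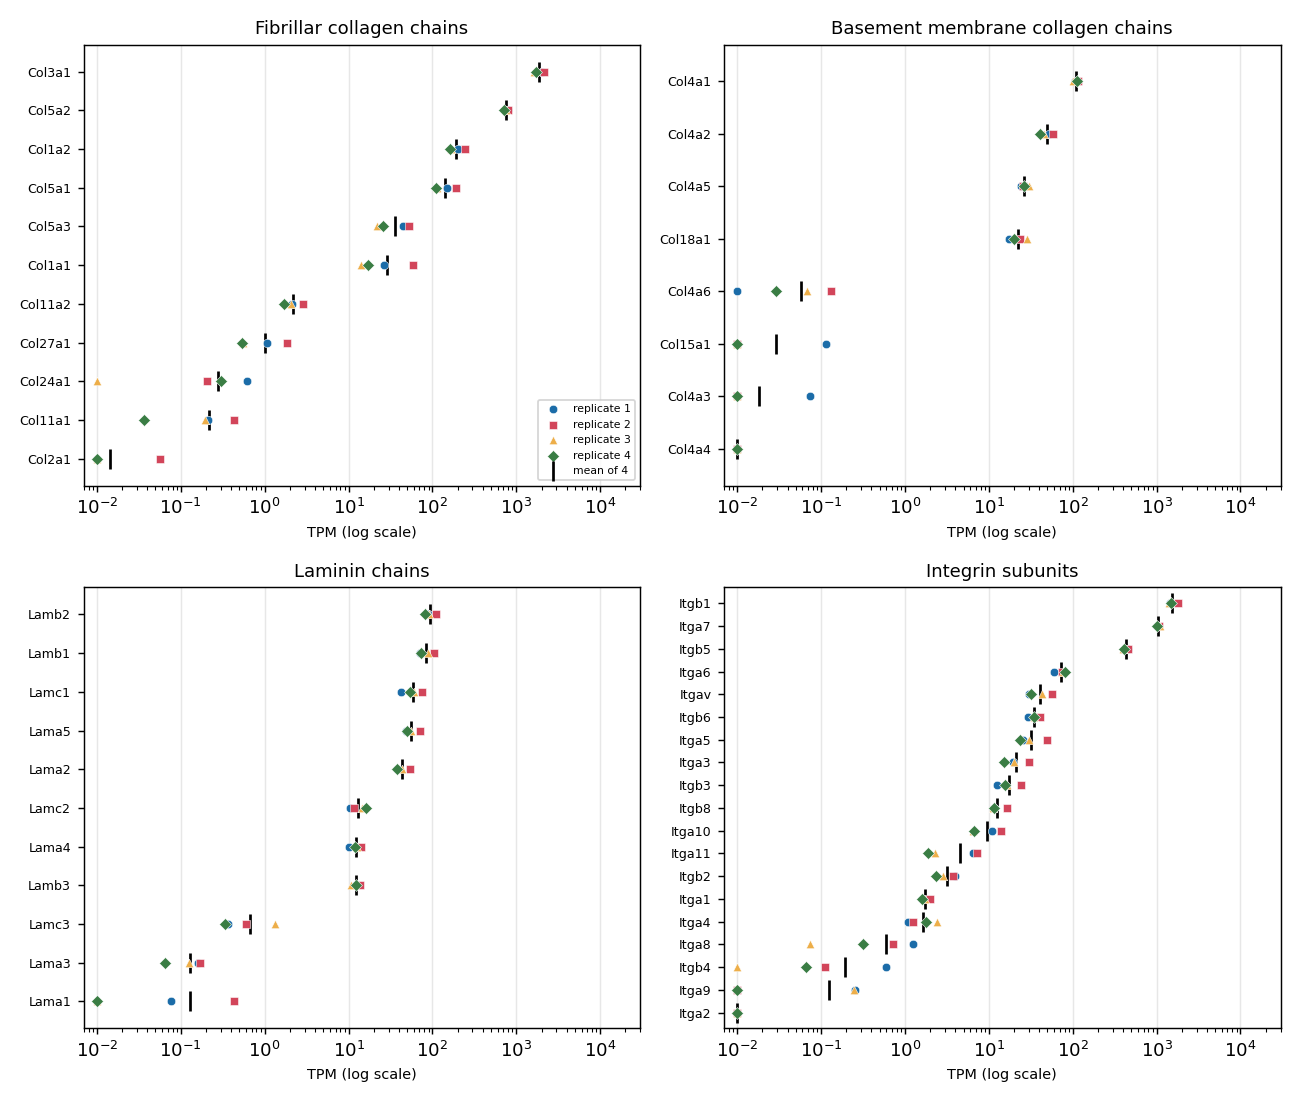
Level per length (TPM, log scale) of fibrillar collagen, basement membrane collagen, laminin and integrin genes in each of the 4 control libraries, with a bar at the mean and values under 0.01 drawn at 0.01. Col3a1 leads the fibrillar chains, Col1a1 lies below Col1a2 in every library, and Itgb1 and Itga7 lead the integrins.

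The non-coding and imprinted lists held 1.80 ± 0.0975% of nuclear counts (SD, n = 4), and H19 and Malat1 made up most of that share. Of 38 genes with a row, 28 were on, 5 were low and 5 were at the floor. H19 (chromosome 7, 142575529 to 142578143, GRCm38) had 7646, 4983, 6612 and 8483 CPM and ranked 4 among all nuclear genes by TPM, ahead of Malat1 in each library. Its neighbour and imprinted partner Igf2, a growth factor gene (chromosome 7, 142650766 to 142666816), is listed with 0 counts in all 4 libraries. In the annotation, 62.8% of the exon bases of Igf2 are shared on the same strand with the gene model Gm49394. Of 4 list genes with more than 50% of exon bases shared in this way, 3 were at the floor, Igf2, the liver marker Trf and the immune marker Itgam, so a 0 for these 3 genes is not read as a lack of transcript. Among all protein-coding genes, 40 of 183 with more than 50% shared had 0 counts, and 1394 of 14956 with none shared had 0 counts. How reads in shared exons were counted is not given in the sources used here, and its part in these 0 values was not tested.

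Other imprinted genes were unevenly expressed. Peg3, a zinc finger gene expressed from the paternal copy, had 499, 614, 445 and 458 CPM, Igf2r had 66.5, 75.0, 45.0 and 49.8 CPM and Zim1 35.3, 59.1, 27.8 and 30.9 CPM. Cdkn1c, an imprinted cell cycle inhibitor, had 5.76, 4.26, 2.37 and 2.40 CPM. The long RNAs of the Dlk1 and Dio3 region were low, with Meg3 at 21, 0, 18 and 0 counts and Rian at 0, 0, 5 and 0 counts. Rtl1 of the same region was at the floor, and Nnat and Plagl1 had 0 counts. Xist, which coats the inactive X chromosome, had 368, 534, 394 and 329 CPM, and in replicate 2 it was highest, as were Malat1 and the paraspeckle RNA Neat1, at 154, 228, 149.9 and 127 CPM. Norad, a cytoplasmic long RNA, had 274, 278, 282 and 278 CPM and hardly differed between libraries. Of small-RNA host genes, Gas5 had 97.6, 74.3, 117 and 111 CPM, Snhg8 114 ± 21.1 TPM and Mir22hg 64.0, 59.6, 57.9 and 64.0 CPM, and Mir133a-1hg, the host of a muscle microRNA, had 38, 58, 26 and 33 counts. A long intergenic RNA outside the lists (chromosome 1, 20669882 to 20684298) shares exon bases with Mir133b on the same strand. It was far more abundant, at 458, 359, 332 and 365 CPM.

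Processed pseudogenes held 0.393 ± 0.0351% of nuclear counts (SD, n = 4). Mylf-ps, a copy of the light chain gene Mylpf, had 419.9 ± 95.8 CPM. Reads of such copies cannot be told from those of the parent in the table, so this value is uncertain and that of Mylpf may be understated.

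The cell cycle lists showed low levels of proliferation genes alongside genes of cell cycle exit. The 25 mitosis genes together held 0.0399 ± 0.0115% of nuclear counts, and 23 of them were on. The median over all 25 was 10.2 CPM. The 25 S phase genes held 0.0775 ± 0.00365%, and 24 were on, and the median over all 25 was 17.8 CPM. All 14 genes of the exit list with a row were on, with a median of 65.4 CPM. That list also holds the cyclin D genes Ccnd1 and Ccnd2, so its median is not that of exit genes alone. The median over all genes that were on, a set without low genes, was 32.9 CPM. The mitosis and S phase medians lay below it and the exit median above it. Per length the medians of the mitosis, S phase and exit lists were 9.82, 14.1 and 46.4 TPM, against 25.6 TPM for genes that were on.

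Among mitosis genes, Top2a, the topoisomerase of dividing cells, had 114, 122, 71.9 and 80.4 CPM, and Mki67, the gene of the proliferation antigen Ki-67, had 53.7, 83.9, 41.4 and 42.2 CPM. Cdk1, the mitotic kinase, had 27.5, 25.6, 23.7 and 22.3 CPM. Mki67 was highest in replicate 2, and Top2a was higher in replicates 1 and 2 than in 3 and 4. Aurka had 5.27, 7.05, 1.30 and 2.27 CPM with the same order of libraries, and Plk1 and Foxm1 were low. By TPM the small cyclin-dependent kinase partner Cks2 was highest, with 65.7 ± 17.1 TPM. Of S phase genes, the replication clamp Pcna had 134, 106, 116 and 125 CPM, the ribonucleotide reductase gene Rrm2 had 51.0, 75.8, 78.7 and 70.0 CPM and the helicase gene Mcm6 had 98.2, 99.3, 112 and 114 CPM.

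Of the cell cycle exit list, Gadd45a had 576 ± 80.9 TPM and Cdkn1a, the inhibitor p21, 196 ± 30.9 TPM. The retinoblastoma gene Rb1 had 91.5, 105, 91.2 and 84.7 CPM. By TPM, Ccnd3, the cyclin D that rises in differentiating muscle, had 61.2 ± 6.85 TPM and Ccnd1 had 31.1 ± 3.40 TPM, with ranges that did not overlap. Genes of undifferentiated myoblasts were also present. The intermediate filament genes Vim and Nes, both carried by developing muscle, had 1517 ± 110.4 TPM and 1280.2 ± 73.2 TPM, and Sdc4 had 543 ± 96.1 TPM. Pax7, the satellite cell factor, was on at 2.74, 6.08, 2.44 and 3.20 CPM, and Id1, Id2 and Id3, inhibitors of the myogenic factors, were on too.

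**Figure D5:**
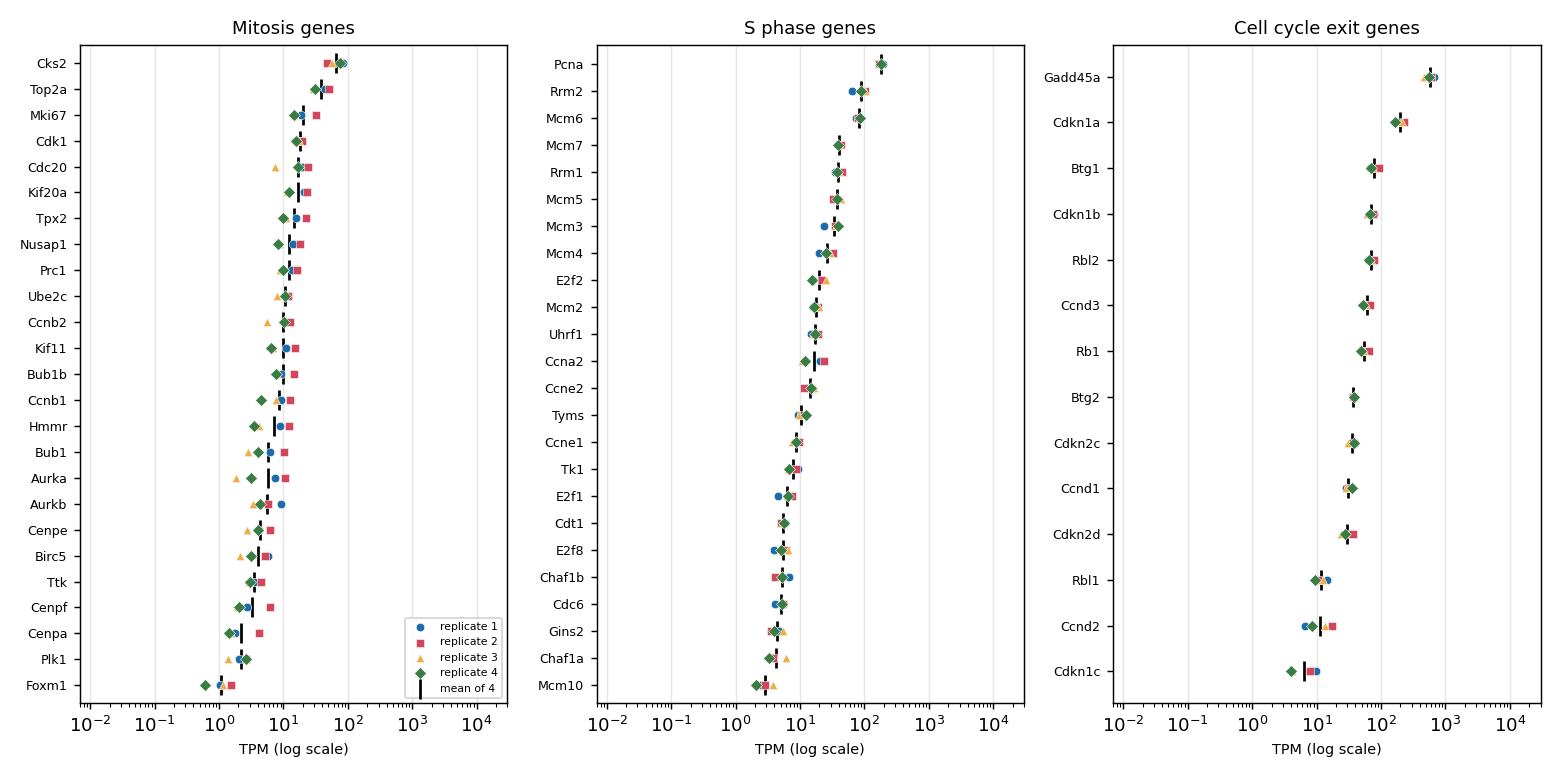
Level per length (TPM, log scale) of mitosis, S phase and cell cycle exit genes in each of the 4 control libraries, with a bar at the mean. Most mitosis genes lie below 20 TPM, and replicates 3 and 4 lie below replicates 1 and 2 for several of them, such as Aurka and Hmmr.

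The label of the cultures was checked against marker lists. All 8 skeletal muscle markers were on, with a summed level of 13154 to 17258 CPM. Among genes with a row, no marker of liver, adipocytes, endothelium, immune cells, bone and cartilage or blood was on. The summed levels of these lists were at most 2.27 CPM in any library. Only 2 of 5 adipocyte markers and 3 of 5 bone and cartilage markers had a row. Trf and Itgam, named above for their shared exons, are among these markers. Of the fibroblast list, 3 of 4 genes with a row were on, with a sum of 210.9 to 333.1 CPM, mainly from Pdgfrb at 225 ± 48.1 CPM. Of the smooth muscle list, 3 of 5 were on, mainly Acta2, while Myh11 was at the floor. Cardiac markers were on in 4 of 6, at 26.6 to 37.4 CPM in sum, which includes Myh6 and Tnni3 named above. Of the neuronal list, Tubb3 at 60.4 ± 19.2 CPM and Stmn2 at 22.6 ± 5.40 CPM were on, and of the epithelial list Krt19 at 11.2 ± 4.15 CPM. Of the Schwann cell list, S100b was on at 2.75 ± 1.55 CPM. The part of other cells in the levels of matrix genes, with fibroblast markers present at these levels, was not tested.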

How the data were processed

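Total RNA of C2C12 myotubes was measured, and the 4 control libraries were used here, while the 16 other columns of the table were not used. The authors deposited 1 table of whole-number counts per gene and library, with Ensembl gene identifiers and mouse symbols, not normalized. That these are raw counts was read from the values, which are whole and differ in total between libraries. Per the labels' protocols, ribosomal RNA was removed (Ribo-Zero) and a stranded total RNA kit (TruSeq) was used. The submitters' processing notes name Trim Galore 0.6.6, cutadapt 2.10, STAR 2.7.6a, HTSeq 0.12.4, DESeq2 1.32.0 and the GRCm38 build, with no role or order. The annotation release, the strand setting and the treatment of shared exons and of reads with several matches are not given in the sources used here.

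Counts were divided by the sum of counts of the 26698 nuclear genes (CPM), and for comparisons between genes by the merged exon length of GENCODE release M21 on GRCm38, which held 26667 of the 26722 identifiers. TPM was computed over genes of at least 300 bases, and 1320 genes without such a length have none. Where a symbol had several rows, the row with the most counts was used. Python 3.11.15 with pandas 2.3.3 and R 4.3.3 with edgeR 4.0.16 and DESeq2 1.42.0 were used, the last only for size factors as an alternative. The computations of dispersion and TPM were checked on simulated counts. Errors are SDs over 4 libraries. No test was made, because the description has no contrast, and overlap of ranges over the 4 libraries is given instead. Floors cover counting error only, since reads without molecular identifiers are not independent molecules, and 0 counts allow up to 3 counts of a library.

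Over pairs of libraries, a chi-square statistic was 8.89 to 34.1 per gene, so no pair agreed within sampling noise and each library was counted once. The genes named are the 25 highest by CPM, the 25 highest protein-coding genes by TPM, the highest members of each family or list, members at the floor, and Musk, Lrp4, Dok7, Rapsn and Agrn whatever their values, with others where a contrast within a family needs them. Pseudogenes named for shared reads, the long RNA that shares bases with Mir133b, and genes named for their spread between replicates were chosen after their values were seen. The members and the 51 gene lists were chosen with earlier results of these data known. Of 538 gene names in the lists and marker sets, 491 have a row, and the rest were not analysed here. The values of a few listed genes are not reported here. Promoter windows came from the RefSeq table on GRCm38.p6, with the first window listed for a symbol, and 111 of the 150 muscle-list genes matched one. Alternatives were other denominators, thresholds, scaling factors and lengths, and leaving out each replicate.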

Additional observations from a re-analysis of the deposited data

Results flagged for a closer look

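For each of 164 values given per library, the highest and lowest library were examined for their distance from the next one as a part of the whole range, and 8 values had a library far from the other 3. For independent, normally distributed values chance would pick out about 5%, which is 8.20 here. The values come from the same 4 libraries and are not independent, so this number does not measure how many are due to chance. In replicate 4, 17564 nuclear genes had at least 1 count, against 17886 to 17930 in the others. The non-coding lists held 1.94% of nuclear counts in replicate 2 and 1.74 to 1.76% in the others. Myog had 744.5 CPM in replicate 2 and 873.4 to 885.2 CPM in the others. Mybpc1 had 11.0 CPM in replicate 2 and 7.40 to 7.66 CPM in the others, and Pdgfrb had 296.1 CPM in replicate 2 and 191.5 to 207.9 CPM in the others. Myh6 had 20.6 CPM in replicate 4 and 12.2 to 13.6 CPM in the others. Ccnd1 had 48.8 CPM in replicate 4 and 37.4 to 39.1 CPM in the others. Rian had 0.382 CPM in replicate 3 and 0 counts in the others, a level near the floor.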

How the results depend on the processing

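Over 135 recomputed values, 109 stayed within the spread between replicates or, for counts of genes, within 1.5 times the value reported, and 26 moved. All 88 values with a replicate left out were within these limits and are part of the 109. For the shares this outcome was fixed in advance, because leaving out a replicate cannot move a mean by as much as the SD between replicates. It therefore says nothing on how firm the shares are. No paired analysis was possible because only 1 group is described and no test was made. The count of genes at the floor was 5017 when only 0 counts were accepted, against 8263, and it does not depend on the denominator, since the floor is set in counts. As shares of all counts, mitochondrial genes included, the muscle lists held 4.96%, the synaptic lists 0.692% and the matrix lists 2.32%. On the same scale the non-coding lists held 1.23% and the proliferation lists 0.544%. The proliferation lists join mitosis, S phase, cell cycle exit and undifferentiated myoblast genes. Of nuclear counts these took 0.0399%, 0.0775%, 0.123% and 0.554%, so the myoblast list made up most of that share. Within that list Nes held 0.230% and Vim 0.201% of nuclear counts. Both are also carried by developing muscle, so the share is not one of undifferentiated or dividing cells alone. Without Malat1, the gene over 1% of nuclear counts in a library, the non-coding lists held 0.904%. The lengths used moved the shares of family leaders. With the longest transcript as length the shares were 54.5% for Mylpf, 49.6% for Acta1, 64.8% for Tnnt3, 72.2% for Tnnc1, 71.9% for Actn3, 50.2% for Chrna1, 65.1% for Col3a1 and 20.2% for Lamb2. With no length correction they were 68.8% for Myh3, 37.6% for Mylpf, 42.5% for Acta1, 55.6% for Tnnt3, 44.3% for Tnni2, 72.8% for Tnnc1, 66.9% for Actn3, 74.6% for Atp2a2, 91.5% for Myog, 63.4% for Chrna1 and 15.9% for Lamb2. Tnni1 then led the troponin I genes, and Lamb1 led the laminins under both settings. Among the 14 families recomputed in this way, the other leaders stayed first under both length settings. Over all 51 gene lists, 15 had another first gene by counts than by TPM. By counts Tpm1 (39.9%) passed Tpm2 (38.1%), Pgam1 (67.1%) passed Pgam2 (32.9%), Itga7 (46.6%) passed Itgb1 (34.1%), and Top2a (24.6%) passed Cks2 (3.45%). Depth limits statements on genes under 3 counts in a library.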
